A study of Mus musculus with 4 samples.

Results

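The genes of histone H3.3 and of the proteins that deposit it were examined for H3K36me3 and H3K9me3, the trimethylated forms of lysine 36 and lysine 9 of histone H3. The 7 genes were *H3f3a* and *H3f3b*, which both encode H3.3, and the chaperone genes *Daxx*, *Hira*, *Ubn1*, *Cabin1* and *Asf1a*. They were chosen for their role and not for their marks, with earlier results of these data known. All enriched regions inside these genes or within 5 kb of them were taken, which gave 69 of the 64095 regions deposited for the series. Of the 69 regions, 63 were H3K36me3 regions out of 31593, and 6 were H3K9me3 regions out of 32502.

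The regions came from chromatin immunoprecipitation followed by sequencing (ChIP-seq) of mouse embryonic stem (ES) cells of the 129S1/SvImJ strain at low passage. WT cells carried 2 unaltered *H3f3a* alleles. The H3.3 G34R cells carried a glycine to arginine substitution at residue 34 of H3.3 on 1 targeted *H3f3a* allele, in which exon 2 had been replaced by a mutant minigene under the endogenous promoter, and their other *H3f3a* allele and both *H3f3b* alleles were unaltered. There were 4 libraries, 1 for each mark in each cell type, with no further treatment named, and the number of G34R clones behind them is not given in the sources used here. For each mark, the region list pooled WT and G34R cells: a region was enriched in WT cells, in G34R cells or in both, without a record of which. The lists hold positions but no read values. The comparison of WT with G34R cells was therefore not analysed here, the depth behind each region is unknown, and no value below has a replicate error or a test.

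H3.3 is the histone H3 variant that enters chromatin outside DNA replication, whereas the canonical forms are laid down mainly in S phase. The HIRA complex, made up of HIRA, UBN1 and CABIN1 and fed by the H3-H4 chaperone ASF1A, is known for depositing H3.3 in genes, at promoters and at regulatory elements, and DAXX acts with the remodeller ATRX at telomeres and other heterochromatin. H3K36me3 is written by SETD2 along the bodies of transcribed genes, and H3K9me3 is a mark of silenced chromatin.

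H3K36me3 was present in 6 of the 7 genes, and H3K9me3 in 2. For reference, an H3K36me3 region lay in 7609 (34%) and an H3K9me3 region in 8986 (40.2%) of 22367 protein-coding genes. Regions within 5 kb changed the count for H3K9me3 only, from 2 to 3 genes with *H3f3b* added, and with this flank 39.7% of protein-coding genes had H3K36me3 and 44.0% had H3K9me3. H3K36me3 without H3K9me3 was found in 4 genes, as in 22% of protein-coding genes. The 6 genes with H3K36me3 were *H3f3a*, *Daxx*, *Cabin1*, *Hira*, *Ubn1* and *H3f3b*. *Hira* and *Cabin1* also carried H3K9me3, in introns, and in both genes part of the H3K9me3 lay on H3K36me3. *Asf1a* held no region of either mark, as was the case for 37.9% of protein-coding genes.

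**Figure D1:**
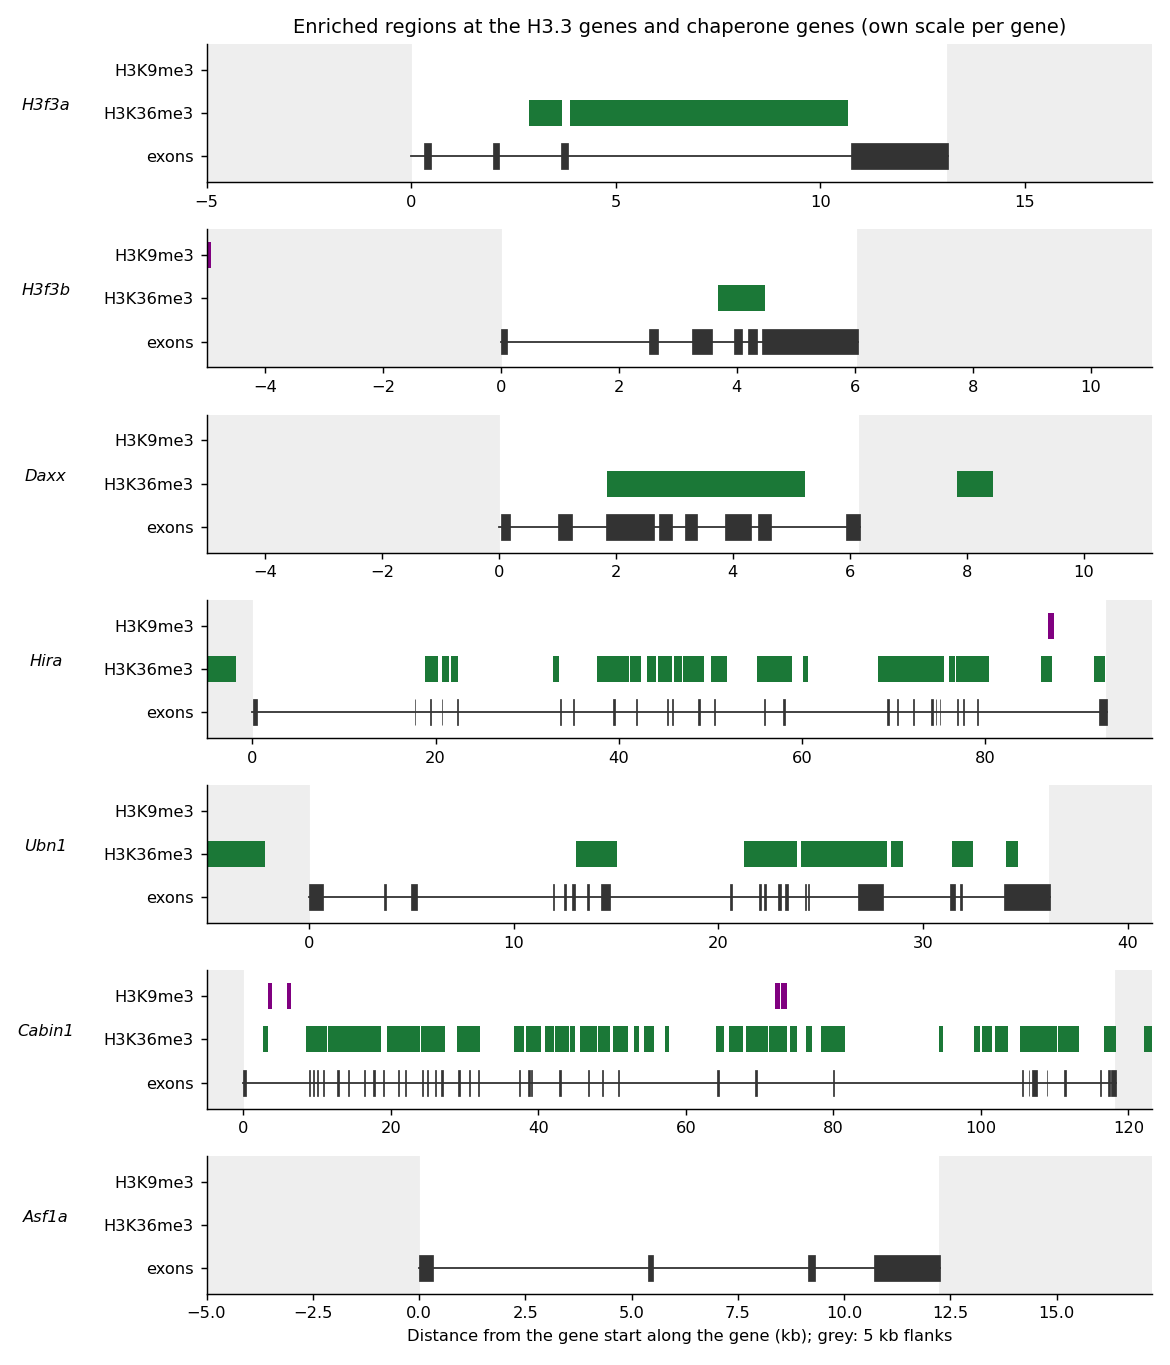
Map of the regions at each gene, drawn from the gene start to its end with 5 kb on both sides (grey); the x axis is the distance from the gene start in kb, with its own scale for each gene, green bars are H3K36me3 regions, purple bars H3K9me3 regions and black boxes the exons of the longest coding transcript. H3K36me3 covers introns around exon 3 of H3f3a, the middle of Daxx and many stretches of Hira, Ubn1 and Cabin1, whereas Asf1a is empty and the 5 H3K9me3 regions inside genes are short.

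Ordered by the share of the gene length in H3K36me3 regions, *H3f3a* came first with 58.0%, followed by *Daxx* with 55.1%, *Cabin1* with 54.2%, *Hira* with 36.2%, *Ubn1* with 30.4%, *H3f3b* with 13.2% and *Asf1a* with 0%. The first 3 values lie within 4 percentage points of each other, and their order depended on the processing. With neighbouring regions within 2 kb merged, *Cabin1* came first with 66.8%, before *H3f3a* with 59.5% and *Daxx* with 55.1%, and with regions of at least 1 kb *Daxx* came first with 55.1%, before *H3f3a* with 51.9% and *Cabin1* with 50.2%. With 1 library for each cell type and mark no spread is available to separate neighbours in this order. Among the 7609 protein-coding genes that carried H3K36me3, the quartiles of the share were 8.52%, 27.6% and 54.3%. Thus *H3f3a* and *Daxx* were above the upper quartile, *Cabin1*, *Hira* and *Ubn1* lay between the median and the upper quartile, and *H3f3b* lay between the lower quartile and the median. *Daxx* and *Cabin1* lay close to the upper quartile on either side, so this placing does not separate them. Over their summed length of 285 kb, the 7 genes were covered by H3K36me3 to 42.3%, compared with 5.71% over all protein-coding genes. H3K9me3 covered 1.12% of their summed length, compared with 3.38%. Such summed shares weight genes by length, in the 7 genes and in all protein-coding genes alike. Of the 120746 bp of H3K36me3 in the 7 genes, *Cabin1* held 64146 bp and *Hira* 33800 bp.

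The share of genes with a region varied with gene length, so the genes were also set against genes of similar length. An H3K36me3 region was present in 29.7% of genes in the length class of *H3f3b* and *Daxx*, 45.2% in that of *H3f3a* and *Asf1a*, 45.8% in that of *Ubn1*, 44.3% in that of *Hira* and 27.3% in that of *Cabin1*, the class of the longest genes. The corresponding shares for H3K9me3 were 27.0%, 32.9%, 51.5%, 65.4% and 84.9%. H3K9me3 was thus in *Cabin1* and *Hira*, the longest of the 7 genes, which fall in the classes where it was most common.

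*H3f3a* (ENSMUSG00000060743.6), the gene that carries the substitution in G34R cells, lies on the minus strand of chromosome 1 at chr1:182730963-182744074 of NCBIM37, the assembly equivalent to mm9. It held 2 H3K36me3 regions and no H3K9me3 region. The wider of them, at chr1:182733401-182740200, was 6800 bp long and lay in the last intron. The other, at chr1:182740401-182741200, was 800 bp long and lay upstream of it, in the intron before exon 3. The first marked base lay 2.87 kb from the gene start, or 21.9% of the way along the gene, and the mark ended 2438 bp before the end of the gene. The next H3K36me3 region on the chromosome was 40.5 kb away and the nearest H3K9me3 region 104 kb away.

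H3K36me3 at *H3f3a* was almost wholly intronic. In the main coding transcript, 76.3% of the intron length lay in H3K36me3 regions, but only 1 of the 408 coding bases did so (0.245%). In 200 bp bins, the unit in which the reads had been counted, 35 of 41 intron bins were marked and 1 of 5 coding bins, the latter through that single base. None of the 13 bins of untranslated sequence was marked. The intronic stretch is shared with *Gm17275*, a long non-coding RNA gene on the opposite strand at chr1:182732699-182739614, and 6214 bp of the mark lay within it. ChIP-seq does not record the strand of transcription, so the mark there cannot be assigned to 1 of the genes.

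The 2 regions of *H3f3a* were separated by a single bin of 200 bp, and this bin was exon 3. It contained 153 of the 154 bases of the exon, a coding exon, and the remaining base was the marked one. The bin is shown 5′ to 3′ on the gene strand, with the bases of exon 3 in capitals (chr1:182740201-182740400, minus strand).

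H3f3a bin without H3K36me3: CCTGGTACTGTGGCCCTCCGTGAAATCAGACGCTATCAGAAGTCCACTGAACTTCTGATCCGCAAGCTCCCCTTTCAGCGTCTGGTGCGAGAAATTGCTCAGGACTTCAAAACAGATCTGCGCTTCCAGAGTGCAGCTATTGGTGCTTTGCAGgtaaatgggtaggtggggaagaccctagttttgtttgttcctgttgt

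*H3f3b* (ENSMUSG00000016559.8) lies on the minus strand at chr11:115883226-115889276 and showed the opposite arrangement. Its single H3K36me3 region, at chr11:115884801-115885600, was 800 bp long, began 3.68 kb from the gene start and lay on the coding exons. It covered exons 4 and 5 completely and the first bases of exon 6, which amounted to 331 of 408 coding bases (81.1%). It covered 13.0% of the intron length, and 0 of 9 intron bins were marked. Thus the coding sequence was covered to 81.1% in *H3f3b* and 0.245% in *H3f3a*, whereas the introns were covered to 13.0% and 76.3%, respectively. The values of *H3f3b* rest on this single region, and with regions of at least 1 kb only, 0% of the gene was covered. The region in *H3f3b* was rich in G+C, with a mean of 63.0% per bin against 41.3% in the unmarked bins of the gene, and it held 61 CpG dinucleotides. In *H3f3a* the means were 43.1% in marked and 47.4% in unmarked bins, and the medians 43.0% and 42.5%.

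The codon of residue 34 fell on different sides of this division. In *H3f3a* it lies in exon 2, at chr1:182741953-182741955, outside both lists and 753 bp from the nearest H3K36me3 region. In *H3f3b* it lies in exon 4, at chr11:115885219-115885221, inside the H3K36me3 region and outside the H3K9me3 list. Exon 2 is the exon replaced on the targeted *H3f3a* allele of G34R cells. The stretches around the codon are given to show how alike the 2 genes are at this place, 5′ to 3′ on the gene strand with the glycine codon in capitals (chr1:182741932-182741985 and chr11:115885198-115885251, both minus strand).

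H3f3a codon 34: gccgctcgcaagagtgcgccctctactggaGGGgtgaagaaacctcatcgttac

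H3f3b codon 34: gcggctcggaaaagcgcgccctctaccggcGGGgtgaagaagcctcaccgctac

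The 2 coding sequences encode the same protein, with 0 residues different. At the DNA level 95 of 411 bases differed, stop codon included, leaving 76.9% identical, and 83 of 137 codons were different. With the sequences aligned base by base, the longest identical run was 23, shorter than the reads of 50 bases used in the study.

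The authors had limited how many alignments a read could have, and whether this affected which bins entered the lists was not tested. Exact copies in the assembly were counted for every word of 50 bases, the read length. The coding exons of *H3f3a* were copied elsewhere far more often than those of *H3f3b*. In exon 2 of *H3f3a* the median word had 6 copies and 63.7% of words had more than 5. In exon 3 the median was 7, the highest number 14, and 84.8% of words had more than 5 copies. Exon 4 has 126 coding bases out of 2374, and over the whole exon 18.5% of words had more than 5 copies. In its coding part, the windows of 50 bp at 10762 and 10812 bp from the gene start had a median of 12 copies. The marked exons 4 and 5 of *H3f3b* had medians of 1 and 2 copies, and no word with more than 5.

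**Figure D2:**
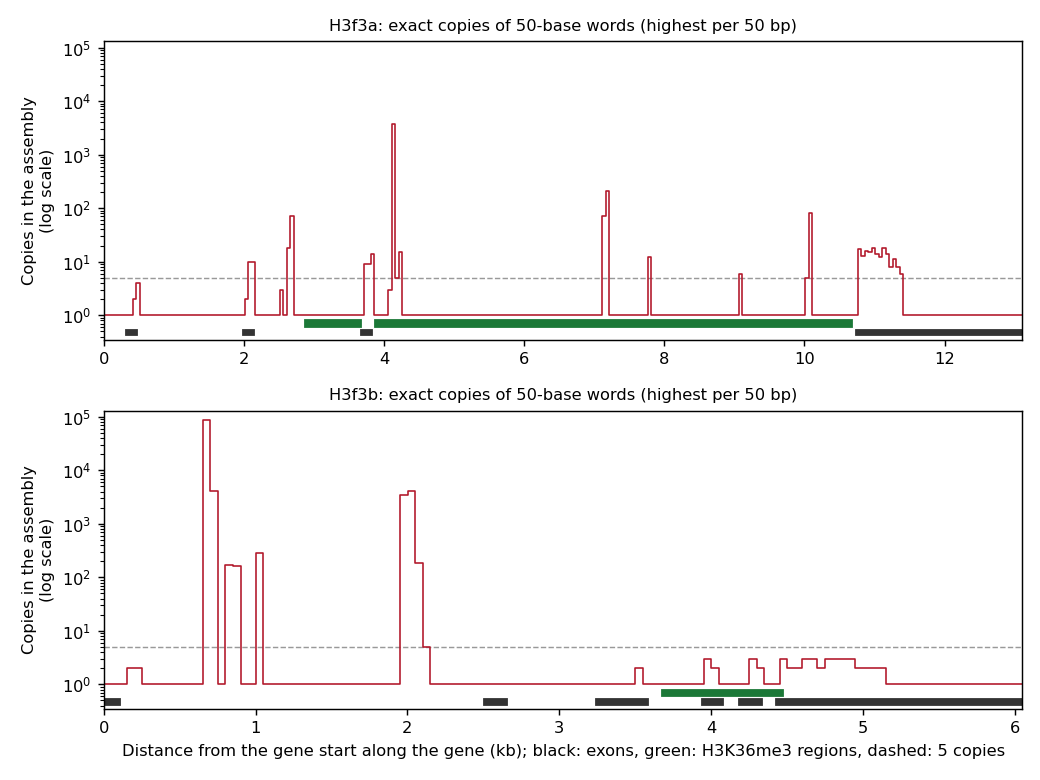
Highest number of exact copies of 50-base words in each 50 bp of H3f3a (top) and H3f3b (bottom), on a log axis against distance from the gene start in kb; black bars are exons, green bars H3K36me3 regions and the dashed line marks 5 copies. Coding exons 2, 3 and 4 of H3f3a rise above 5 copies and lie outside the regions but for 1 base of exon 3, while the marked exons of H3f3b stay at or below 3 copies; short repeats in introns of both genes reach far higher numbers.

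The copies of the *H3f3a* coding exons lay at 35 other loci on 14 chromosomes, of which 17 were in annotated pseudogenes and 10 outside genes. The locus sharing the most words, 187, was *H3f3c*, annotated as a pseudogene, on chromosome 2. For *H3f3b* there were 2 such loci, 1 of them in the pseudogene *Gm6485*.

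Copied sequence also occurred in other unmarked bins. Across the 7 genes, 0.632% of words in H3K36me3 bins and 4.01% of words in unmarked bins had more than 1 copy. Among the genes with H3K36me3, *Daxx* was the exception, with 4.29% in marked and 2.87% in unmarked bins. In *H3f3b* the shares were close, at 11.6% and 13.9%. Bins in which at least 50% of words had more than 5 copies numbered 12, and all were unmarked. A gap of a single bin between neighbouring regions occurred 18 times, in *H3f3a*, *Hira*, *Ubn1* and *Cabin1*, and words with more than 5 copies were found in the one of *H3f3a* (45.0% of words) and in 1 of *Hira* (13.0% of words). All words in the 63 bins of *Asf1a* had 1 copy. The part of copied sequence in the absence of the mark at the *H3f3a* exons was not tested.

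*Daxx* (ENSMUSG00000002307.9), the gene of the chaperone that acts with ATRX, lies on the plus strand at chr17:34046359-34052534. It held 1 H3K36me3 region of 3400 bp, at chr17:34048201-34051600, in an unbroken block from 1.84 kb after the start to 934 bp before the end. The block touched exons 3 to 7 of 8 and covered 4 of them completely, or 1920 of 2220 coding bases (86.5%). It covered 41.5% of the intron length. Exons 1, 2 and 8 were unmarked, and the nearest H3K9me3 region was 83.7 kb away, in *H2-K1*. A further H3K36me3 region of 600 bp, at chr17:34054201-34054800, lay 1667 bp downstream in sequence shared by *Tapbp* and *Zbtb22*.

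*Hira* (ENSMUSG00000022702.9), the gene of the subunit after which the complex is named, spans 93273 bp on the plus strand at chr16:18877130-18970402. It held 18 H3K36me3 regions, which together covered 33800 bp. None lay in the first 18.9 kb of the gene, which include exons 1 and 2. From there to the end the regions were spread with gaps of up to 10400 bp, and 6 of the 17 gaps were a single bin. The widest region, at chr16:18945401-18952600, was 7200 bp long and ran over exons 16 to 21. The last, at chr16:18969001-18970200, reached exon 25 and ended 202 bp before the end of the gene. The first region, at chr16:18896001-18897400, held 3 coding bins. Regions without a coding bin numbered 6 of 18, among them the 3 narrowest of 600 bp each, at chr16:18910001-18910600, chr16:18937201-18937800 and chr16:18953201-18953800. The median width was 1200 bp. Of the 25 exons 21 were touched and 18 fully covered, and exons 1, 2, 6 and 7 were unmarked. The coding sequence was covered to 86.2% and the introns to 34.4%, and 66.4% of the marked length lay in the second part of the gene past its midpoint. An H3K36me3 region of 3400 bp, at chr16:18872001-18875400, lay 1730 bp upstream in the neighbouring gene *Mrpl40*.

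*Ubn1* (ENSMUSG00000039473.6), which encodes the HIRA partner ubinuclein 1, lies on the plus strand at chr16:5050161-5086378. It held 6 H3K36me3 regions with 11000 bp in total, and the first began 13.0 kb from the start. The 3 largest were at chr16:5074201-5078400 (4200 bp, over exons 14 to 16), chr16:5071401-5074000 (2600 bp) and chr16:5063201-5065200 (2000 bp). The smaller ones were at chr16:5078601-5079200, chr16:5081601-5082600 and chr16:5084201-5084800, the last in untranslated sequence of the final exon. Past the midpoint of the gene lay 81.8% of the marked length. Of 19 exons 12 were touched, none before exon 7, and the coding sequence was covered to 77.2% against 26.1% of the introns. The nearest H3K9me3 region was 21.8 kb away, in *Ppl*. Upstream, at chr16:5045201-5048000, an H3K36me3 region lay 2161 bp away in *Glyr1*.

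*Cabin1* (ENSMUSG00000020196.8), which encodes the calcineurin-binding subunit of the complex, is the longest of the 7 genes with 118248 bp, on the minus strand at chr10:75108855-75227102. It held 31 H3K36me3 regions that covered 64146 bp. Of its 37 exons 34 were marked, all over their full length, and exons 1, 10 and 35 were unmarked. The coding sequence was covered to 94.9% and the introns to 51.8%. The mark began 2.70 kb from the start (2.29% of the gene), with an intronic region at chr10:75223801-75224400, and ran over the end of the gene with a region at chr10:75108801-75110400. The widest region, at chr10:75208401-75215600, was 7200 bp long and covered exons 6 to 9. It was followed upstream, after a gap of 200 bp, by a region at chr10:75215801-75218600 over exons 2 to 5. Other wide regions were at chr10:75116801-75121800 (5000 bp, with 9 coding bins) and chr10:75203201-75207600 (4400 bp, with 5 coding bins). Of the 31 regions 14 held no coding bin, and the median width of all 31 was 1800 bp. The largest gap was 12800 bp, and 42.3% of the marked length lay past the midpoint. Downstream, a region of 5000 bp at chr10:75100001-75105000 lay in *Susd2*, 3855 bp away.

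**Figure D3:**
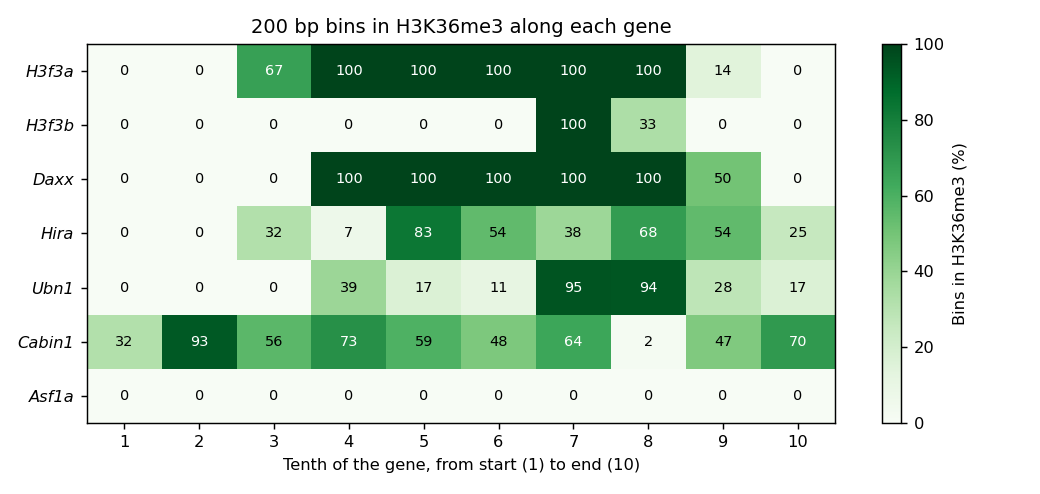
Share of 200 bp bins in H3K36me3 regions in 10 equal parts of each gene, from the start (1) to the end (10), with the percentage printed in each cell and a colour scale from 0 to 100%. Parts 1 and 2 are empty in every gene but Cabin1, H3f3a and Daxx are fully marked in parts 4 to 8, and Cabin1 is lowest in part 8.

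Along the genes, all 42 bins of the genes within 1 kb of a gene start were free of both marks. Upstream, no H3K36me3 region lay nearer to a start than 1730 bp and no H3K9me3 region nearer than 4925 bp. Of all protein-coding genes, 2.62% had H3K36me3 and 19.1% had H3K9me3 within 1 kb of the start on either side. With each gene divided into 10 equal parts, 100% of the bins of *H3f3a* were marked in parts 4 to 8 and none in parts 1, 2 and 10. *Daxx* was likewise fully marked in parts 4 to 8. In *Ubn1* parts 7 and 8 were covered to 94.7% and 94.4%, and in *Hira* part 5 to 83%. *Cabin1* was the gene with marked bins in parts 1 and 2, with 31.7% and 93.2%, while its part 8 was nearly empty with 1.69%. Over all 7 genes, 54.4% of the marked length lay past the midpoint.

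The coding sequence was marked more fully than the introns in 5 of the 6 genes with H3K36me3, the exception being *H3f3a*. Coding bins of the 7 genes were marked in 145 of 181 cases (80.1%), bins of untranslated sequence in 9 of 56 (16.1%) and intron bins in 445 of 1151 (38.7%). Among 7489 protein-coding genes with H3K36me3 and at least 1 intron, the median share was 57.1% of the coding sequence and 23.6% of the introns, and 80.2% of these genes had the higher share in the coding sequence. The 5 genes *H3f3b*, *Daxx*, *Hira*, *Ubn1* and *Cabin1* were all above the median for coding sequence, with 77.2% to 94.9%. *Cabin1* holds 68 of the 145 marked coding bins, and without it the shares were 70.6% for coding bins and 30.2% for intron bins.

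**Figure D4:**
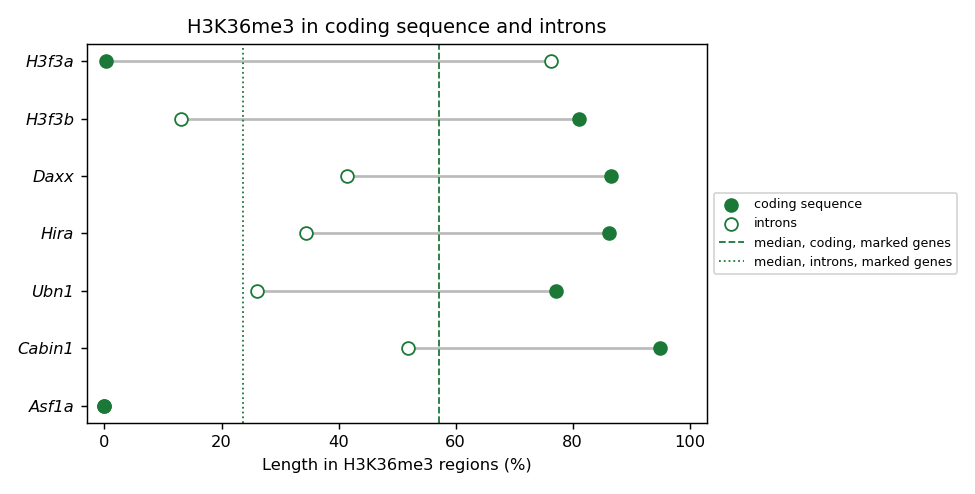
Percentage of the coding sequence (filled circles) and of the introns (open circles) in H3K36me3 regions for each gene; the dashed and dotted lines are the medians of 7489 protein-coding genes with the mark, 57.1% for coding sequence and 23.6% for introns. In H3f3b, Daxx, Hira, Ubn1 and Cabin1 the filled circle lies to the right of the open one, in H3f3a it lies at 0.245% against 76.3%, and both values of Asf1a are 0.

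The arrangement at *H3f3a* was uncommon in the region lists. Of 956 genes with at least 70% of their introns in H3K36me3 regions, 1 had under 1% of its coding sequence covered (0.105%), and this was *H3f3a*. Of 2173 genes covered to at least 50%, counted within the limits of the transcript, 6 had under 1% of the coding sequence covered (0.276%). They were *H3f3a*, *B230325K18Rik*, *Gm17307*, *Hsbp1*, *Phlda3* and *Rbm15b*. The limits of 1%, 50% and 70% were chosen after the values of *H3f3a* were seen, so these counts describe the gene and test nothing. In exons 2 and 3 of *H3f3a*, 63.7% and 84.8% of words had more than 5 copies. Copies were counted for the 7 genes only, and the part of copied sequence in this arrangement was not tested.

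*Asf1a* (ENSMUSG00000019857.6), whose product hands H3-H4 dimers to the HIRA complex, lies on the plus strand at chr10:53316767-53329019 and is 12253 bp long. None of its 63 bins was in either list, coding bins included. The nearest H3K36me3 region was 13.0 kb away at chr10:53342001-53342800 and the nearest H3K9me3 region 45.8 kb away in *Fam184a*. *Asf1a* lies wholly inside *Mcm9*, a helicase gene on the opposite strand, and the nearest H3K36me3 region lay in *Mcm9*, which held 1600 bp of the mark in all. The median G+C content of the *Asf1a* bins was 38.5%. In H3K36me3 bins the median was 43.0% in *H3f3a*, 46.0% in *Hira*, 46.5% in *Ubn1*, 51.0% in *Cabin1*, 54.5% in *Daxx* and 63.5% in *H3f3b*. In the unmarked bins of all 7 genes it was 43.5%, and in those of *Daxx* alone 54.5%. The part of G+C content in the absence of regions was not tested.

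H3K9me3 was confined within these genes to introns of *Cabin1* and *Hira*. All 16 H3K9me3 bins inside the genes were intron bins, out of 1151 (1.39%), and no exon of any of the 7 genes was touched. In *Cabin1*, 4 regions covered 2600 bp (2.2%), and in *Hira* 1 region covered 600 bp (0.643%). Both shares were below 2.39%, the lower quartile of the 8986 protein-coding genes with H3K9me3. With neighbouring regions within 2 kb merged, the share of *Cabin1* was 4.06% and that of *Hira* did not change. The quartile is from unmerged regions, so the merged share of *Cabin1* cannot be placed against it. All 6 H3K9me3 regions at the genes were 600 or 800 bp wide, at or near the 600 bp that is the shortest width in the list.

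Of the 4 regions of *Cabin1*, those at chr10:75153401-75154200 and chr10:75154401-75155000 lay wholly inside the H3K36me3 region chr10:75153401-75155800. The region at chr10:75220601-75221200 lay in the first intron without H3K36me3, and that at chr10:75223201-75223800 ended where an H3K36me3 region began and shared no base with it. In these last 2 regions, 10.8% and 17.8% of words had more than 1 copy in the assembly, and in the first 2 and in *Hira* none had. The *Hira* region, at chr16:18964001-18964600, overlapped the end of the H3K36me3 region chr16:18963201-18964400.

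Together, 1800 bp of the 7 genes were in both lists, 1400 bp in *Cabin1* and 400 bp in *Hira*. Some shared length occurred in 7.14% of protein-coding genes, and regions of both marks in 12.1%. The shared length was 2.18% of the H3K36me3 length and 53.8% of the H3K9me3 length in *Cabin1*, and 1.18% and 66.7% in *Hira*. As each list pools WT and G34R cells, the marks at a shared base may come from the same cells or from different ones. The central 300 bases of the 3 shared stretches are shown because these are the places where the marks meet, 5′ to 3′ on the gene strand with CpG dinucleotides in capitals. They lie at chr16:18964051-18964350 on the plus strand and at chr10:75153651-75153950 and chr10:75154551-75154850 on the minus strand.

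Hira intron, both marks: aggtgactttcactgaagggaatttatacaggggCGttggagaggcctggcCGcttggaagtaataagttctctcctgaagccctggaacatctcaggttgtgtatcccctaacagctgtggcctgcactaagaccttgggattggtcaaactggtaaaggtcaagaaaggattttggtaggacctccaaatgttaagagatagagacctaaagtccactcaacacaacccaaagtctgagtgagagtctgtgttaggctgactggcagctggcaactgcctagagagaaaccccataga

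Cabin1 intron, both marks, stretch of 800 bp: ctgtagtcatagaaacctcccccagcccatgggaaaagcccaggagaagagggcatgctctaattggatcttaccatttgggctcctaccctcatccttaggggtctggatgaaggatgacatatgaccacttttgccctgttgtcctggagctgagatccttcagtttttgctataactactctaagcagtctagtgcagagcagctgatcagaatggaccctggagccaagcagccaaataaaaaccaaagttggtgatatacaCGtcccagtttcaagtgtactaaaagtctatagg

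Cabin1 intron, both marks, stretch of 600 bp: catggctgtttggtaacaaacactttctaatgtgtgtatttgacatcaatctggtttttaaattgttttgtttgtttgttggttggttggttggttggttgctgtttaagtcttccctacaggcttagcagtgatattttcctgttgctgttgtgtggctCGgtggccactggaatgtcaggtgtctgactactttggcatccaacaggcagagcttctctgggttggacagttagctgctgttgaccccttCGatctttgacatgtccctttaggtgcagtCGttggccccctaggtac

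These stretches held 2, 1 and 3 CpG dinucleotides in 300 bases and had G+C contents of 48.3%, 47.0% and 45.7%. For reference, a 200 bp bin with H3K36me3 held 1.44 CpG on average in *Hira* and 2.49 in *Cabin1*. These means are per 200 bp and the counts above per 300 bases, so they cannot be compared directly. In bins with H3K9me3, also of 200 bp, the means were 1.00 in *Hira* and 1.54 in *Cabin1*.

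The remaining H3K9me3 region lay outside the genes, 4925 bp upstream of *H3f3b* at chr11:115894201-115894800, inside *Unk*. It was the region closest to the 5 kb limit on the inner side. Just outside the limit were an H3K36me3 region of *Glyr1* 5161 bp from *Ubn1*, at chr16:5044401-5045000, and an H3K9me3 region of *Unk* 5925 bp from *H3f3b*, at chr11:115895201-115896200. All regions in the flanks lay in neighbouring genes, and the study had kept only bins in annotated genes.

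Other genes of H3.3 deposition were looked at for comparison (*Atrx*, *Ubn2*, *Asf1b*, *Nasp*, *Dek*, *Hirip3*, *Chd1* and *Chd2*). Of these 8 genes 6 carried H3K36me3, against 34% of all protein-coding genes and 27.3% to 48.7% in their length classes. H3K9me3 was in 3 of the 8, against 40.2% of all protein-coding genes and 27.0% to 84.9% in their length classes. The median H3K36me3 share was 33.0% against 36.2% for the 7 genes above, and H3K36me3 covered 24.3% of the summed length against 42.3%. The highest shares were in *Nasp*, a chaperone of soluble H3-H4 (68.4%), the remodeller gene *Chd2* (65.2%) and *Hirip3*, which encodes a HIRA-binding protein (55.5%). *Atrx*, the partner gene of *Daxx*, held no region of either mark, whereas *Daxx* was covered to 55.1% by H3K36me3. The HIRA partner gene *Ubn2* had no H3K36me3 and 1 H3K9me3 region (0.744%), unlike *Ubn1*, with 30.4% H3K36me3 and no H3K9me3. *Asf1b* was covered by H3K36me3 to 33.3% and *Asf1a* to 0%. H3K9me3 in this group was highest in *Hirip3* (17.6%), and in *Hirip3* and *Chd2* (0.695%) all of the H3K9me3 length, 600 bp and 800 bp, lay on H3K36me3.

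**Figure D5:**
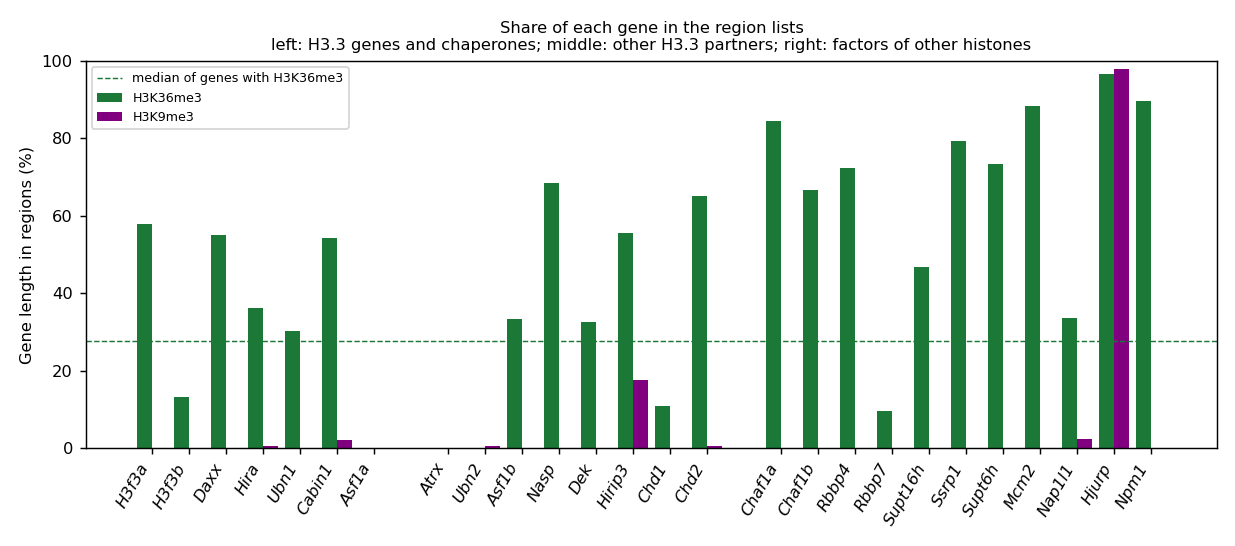
Percentage of each gene's length in H3K36me3 (green bars) and H3K9me3 regions (purple bars) for the 7 genes (left), 8 other partners in H3.3 deposition (middle) and 11 chaperones and assembly factors of other histones (right); the dashed line is the median of protein-coding genes with H3K36me3, 27.6%. H3K36me3 is absent from Asf1a, Atrx and Ubn2 and present in all 11 genes on the right, and Hjurp is the gene with a high share of both marks.

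Chaperones and assembly factors of other histones were looked at in the same way. All 11 genes of this group held H3K36me3, against 34% of all protein-coding genes and 38.0% to 48.7% in their length classes, with a median share of 73.3%, a range of 9.63% to 96.7% and 64.9% of the summed length, compared with 42.3% for the 7 genes. The highest shares were in *Hjurp*, the chaperone gene of the centromeric H3 variant CENP-A (96.7%), *Npm1* (89.7%), which encodes nucleophosmin, and *Mcm2* (88.4%), which encodes a subunit of the replicative helicase. H3K9me3 was in 2 of the 11, *Hjurp* (97.8%) and *Nap1l1* (2.40%), against 40.2% of all protein-coding genes and 29.1% to 51.5% in their length classes. The 17911 bp in both lists were all in *Hjurp*. Among the 26 genes of the 3 groups, those with both marks were *Hira*, *Cabin1*, *Hirip3*, *Chd2*, *Nap1l1* and *Hjurp*. Whether the groups differ was not tested, as the genes had been chosen by role with results known.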

How the data were processed

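ChIP-seq of H3K9me3 and H3K36me3 was performed in mouse ES cells, either WT or with the G34R substitution (4 libraries, 1 per group). According to the methods of the study, 50-base single reads were aligned to mm9 with Bowtie 1.0.0 under a limit on multiple alignments, PCR duplicates were excluded, and reads per 200 bp bin were scaled to the library total and matched in distribution between cell types. Bins in annotated genes above the 95th percentile in WT or G34R cells were joined with bedtools 2.20.1, and the methods then name a limit on width (the shortest deposited region was 600 bp) and a filter against the highest read counts. The authors deposited 1 list per mark with 3 columns (chromosome, start and end). The unit of these deposited values is a genome position, so neither depth nor a count test was available.

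Positions were treated as 1-based and set against the NCBIM37 assembly and its GENCODE annotation. A region belonged to a gene from an overlap of 1 bp. Covered length, position, exons and gene parts were computed with Python 3.11.15, numpy 2.4.6 and pandas 2.3.3. Each 200 bp bin was assigned to the first that applied of within 1 kb of the gene start, coding sequence, untranslated region, other exon and intron. Exact copies of 50-base words were counted on both strands of 211 sequences of the assembly (numba 0.67.0), and copies with mismatches were not counted. Length classes were 10 equal groups of protein-coding genes. Overlap, covered length and merging gave 0 differences from direct counting in 4200 tests on simulated data.

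The 7 genes and both comparison lists were chosen by role, with earlier results of these data known. All 7 genes were named, and of the comparison lists the 3 highest shares per mark and each gene with both marks. *Atrx*, *Asf1b* and neighbouring genes were named as counterparts or for location, and *Gm6485* and *H3f3c* after their values were seen. Alternatives were another flank, a minimum width, merging of neighbours, the overlap rule and other gene limits.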

Additional observations from a re-analysis of the deposited data

How the results depend on the processing

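Of 87 values under alternatives, 64 were unchanged or stayed within a limit and 23 moved. The 87 include 42 shares of single genes, of which 8 moved. Some of these shares were 0 from the outset, such as both marks in *Asf1a*. A minimum width or narrower gene limits cannot change a share of 0, so these count as unchanged by construction. The limit was 1.5-fold for counts. For shares it was a 95% confidence interval, counted over 200 bp bins for covered length and over genes for shares of genes. Neighbouring bins are not replicates, so the interval served only to sort values and measures no spread. Its width depends on how many bins or genes are counted. Values within the limit could still differ. With regions of at least 1 kb, the H3K36me3 regions went from 63 to 45 and the share of *H3f3a* from 58.0% to 51.9%. With H3K36me3 regions of at least 1 kb, 5 of 7 genes held the mark (*H3f3b* was lost), the genes were covered to 38.2%, and 28.4% of protein-coding genes held a region. The same minimum for H3K9me3 left 0 genes, 0 regions, a share of 0% and 0 shared bp, and 24.6% of protein-coding genes, so that every H3K9me3 result at these genes rests on regions under 1 kb. It left no length whose position could be given. Merging within 2 kb gave 24 H3K36me3 regions, 50.0% covered by H3K36me3 and 1.89% by H3K9me3. Requiring 50% of the region inside the gene gave 33.1% of protein-coding genes with H3K36me3, and genes of at least 10 kb gave 42.8% for H3K36me3 and 52.6% for H3K9me3. Without *Cabin1*, 70.6% of coding bins and 30.2% of intron bins were marked, an alternative chosen after seeing the data, as were bins mostly of 1 copy (80.6% and 39.2%) and leaving out *H3f3a* (81.8% and 36.9%). *Atrx*, *Ubn2* and *Asf1a* hold no H3K36me3 region in the deposited lists, which says nothing of signal below the threshold or of stretches removed by the study's limits on width and read count. No paired analysis was possible because each group is 1 library and the lists pool cell types.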

Other observations

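Genes next to or overlapping the H3.3 and chaperone genes differed in their marks. *Unk*, beyond the start of *H3f3b*, held 17128 bp of H3K36me3 and 1600 bp of H3K9me3. *Glyr1*, which is named for a glyoxylate reductase fold and lies beyond the start of *Ubn1*, held 27800 bp of H3K36me3 and no H3K9me3, and *Ppl*, at the other end of *Ubn1*, held 600 bp of H3K9me3 and no H3K36me3. *Mrpl40*, which encodes a mitochondrial ribosomal protein and lies beyond the start of *Hira*, was marked by H3K36me3 over 3290 bp. The processed transcript *Gm15797* inside *Hira* held 2350 bp of H3K36me3. These neighbours were named for their place and were not compared with other genes.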
